A study of Sus scrofa with 29 samples.

Results

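The genes described here are the vascular endothelial growth factors VEGFA, VEGFB and VEGFC, the VEGF receptors FLT1 and NRP1, the angiopoietins ANGPT1 and ANGPT2, the growth factor FGF2 and the hypoxia-inducible factors HIF1A and EPAS1. Their probe sets were taken by the gene symbol of the array's annotation. Of these 10 genes, 8 had a probe set under their symbol, with 18 probe sets in all out of 23999 tested. VEGFA and HIF1A had 4 each, FLT1 had 3, ANGPT1 and FGF2 had 2 each, and VEGFB, ANGPT2 and EPAS1 had 1 each. VEGFC and NRP1 had none by symbol and are not analysed here.

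VEGF ligands bind receptor tyrosine kinases on endothelial cells and drive their growth, survival and permeability, and FLT1 binds VEGFA and VEGFB tightly while signalling weakly. Angiopoietins act on the endothelial receptor TEK (also called TIE2): ANGPT1, made mainly by mural cells, stabilises vessels, and ANGPT2, stored and released by endothelial cells, loosens them. HIF1A and EPAS1 (HIF-2 alpha) are oxygen-regulated subunits that pair with ARNT to switch on hypoxia genes, among them VEGFA. Both are controlled to a large extent at the protein level, which an RNA array does not measure. In skeletal muscle and heart, growth of small vessels with endurance training is linked to VEGF. The vessels studied here are conduit arteries.

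RNA was measured in scrapes of the inner surface of 2 arteries from healthy pigs, the brachial artery, which supplies the foreleg, and the internal mammary artery, which runs inside the chest wall. Exercised pigs completed 16 to 20 weeks of treadmill running on 5 days of each week, and tissue was taken about 24 h after their last run, and sedentary pigs stayed in their pens without training. Every pig, trained or not, received ketamine and Rompun and then phentobarbital sodium, and was ventilated on room air, before the arteries were taken. The groups were brachial sedentary (7 arrays), brachial exercised (7), internal mammary sedentary (7) and internal mammary exercised (8), from 15 pigs of which 14 gave both arteries. The replicates were separate pigs, and their age and sex are not given in the sources used here. For the 8 exercised internal mammary samples one label field says sedentary while titles and treatment tags say exercised, and the latter were used. Values are log2 array intensities as the authors deposited them, so a difference of 1 is a doubling. They show how one probe set varied between samples. Mean levels were used to pick a probe set per gene and to call probe sets bright or dim, not to compare amounts of RNA.

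The scrapes were described as endothelium-enriched, and their endothelial marker probe sets had means over the 29 arrays of 13.97 for PECAM1, 12.43 for NOS3, 12.39 for CDH5, 7.53 for VWF and 4.03 for KDR. The smooth muscle probe sets of ACTA2 and TAGLN had means of 13.76 and 13.50. These levels belong to different probe sets, so they do not rank the cell types. In bulk samples like these, fewer cells of a type and less RNA per cell cannot be told apart. Between the arteries, the fibroblast marker mean was higher in brachial samples in 13 of 14 pigs (by 0.498, adjusted p = 0.011 by exact sign flips), and DPT was the 1 of its 5 measured genes that passed. The median change of these 5 genes was only 0.09. The macrophage marker mean was lower in 11 of 14 pigs (-0.320, adjusted p = 0.0443), with 5 of 8 genes lower and 0 higher. The smooth muscle mean gave 0.382 (adjusted p = 0.494), with 3 of 11 genes higher and 1 lower, and the endothelial mean gave 0.0446 (adjusted p = 0.687), with 4 of 12 higher and 2 lower. Bacterial and phage controls added to every array were higher on the brachial array in 14 of 14 pigs for 16 of 18 control probe sets, with a median difference of 0.765. The bacterial ones differed by 0.686 to 0.892 and those of the phage gene cre by 0.089 to 0.193. The 28S/18S ribosomal RNA ratio given in the labels was higher in 11 of 14 pigs (by 0.142, adjusted p = 0.0443). The array median was lower by 0.0516 on average, again in 14 of 14 pigs. Array handling and artery therefore cannot be told apart.

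The artery was the comparison in which probe sets of these genes passed. In the brachial artery EPAS1 was 1.66-fold lower than in the internal mammary artery of the same pigs, in 14 of 14 pigs. Of 4 HIF1A probe sets, 2 were lower, one of them 2.38-fold and in 14 of 14 pigs. The HIF1A probe set with the highest mean did not differ between the arteries (-0.01 ± 0.07, adjusted p = 0.877 by limma). Of 4 VEGFA probe sets, 2 were lower and 1 was higher, and 1 of 2 FGF2 probe sets was lower. Of 3 FLT1 probe sets, 1 was lower and 1 was higher. ANGPT2 was 1.55-fold higher, a call lost in 8 of 29 alternatives. By limma with pig as a random block and Benjamini-Hochberg adjustment over all probe sets, 10 of the 18 probe sets passed an adjusted p of 0.05, 3 higher and 7 lower in the brachial artery. That is 55.6% of them, and among all probe sets 54.3% passed, so the share itself says nothing particular about these genes. By direction, 16.7% of the 18 were higher against 31.8% of all, and 38.9% were lower against 22.5% of all. With arrays centred again on their medians, the split over all probe sets moved from 58.6% to 69.4% higher among those that passed, while the 18 gave 4 higher and 7 lower. The median change of the 18 was -0.13, and that over all probe sets was 0.03.

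**Figure D1:**
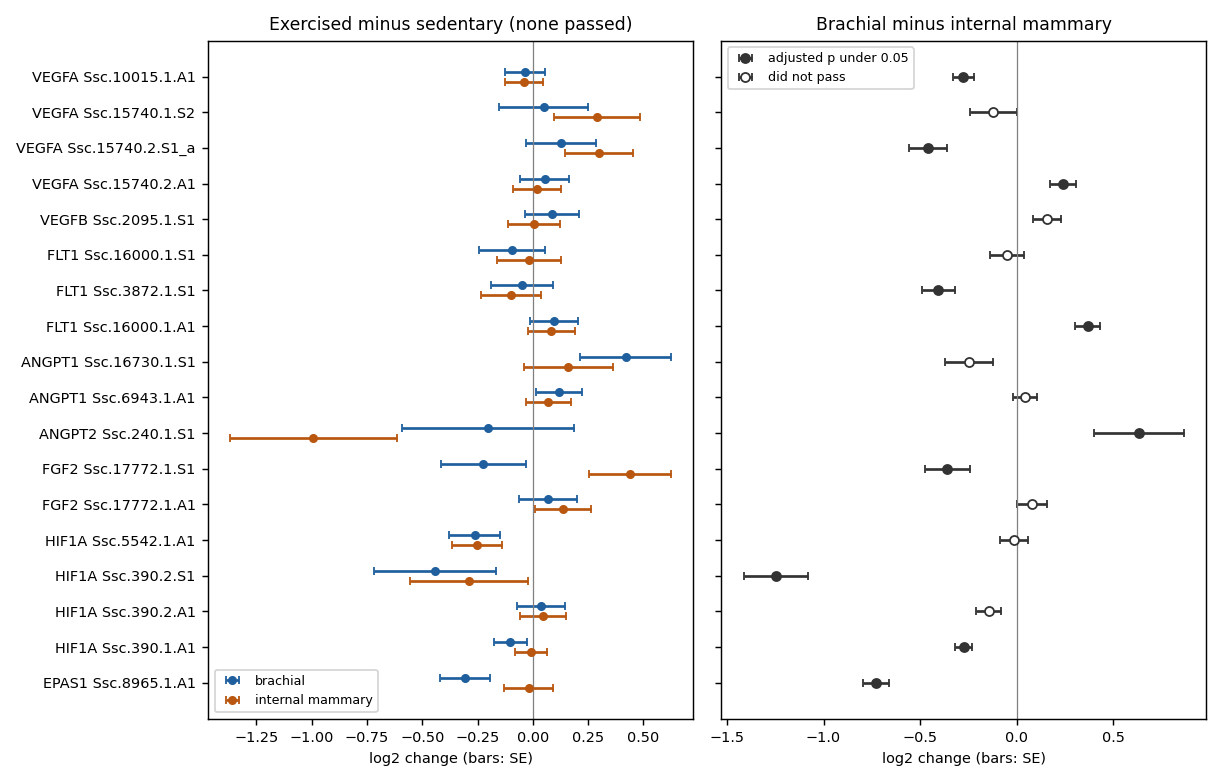
Log2 change of each of the 18 probe sets (points) with its standard error (bars), exercised minus sedentary in each artery on the left and brachial minus internal mammary on the right. EPAS1 at -0.73 and HIF1A Ssc.390.2.S1 at -1.25 lie farthest to the left on the right panel, and none of the exercise changes passed.

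Among the ligands, VEGFA was read by 4 probe sets that did not give one picture. The one with the highest mean (Ssc.10015.1.A1) ran from 10.81 through a median of 10.93 to 11.24 in brachial sedentary and from 10.71 through 10.95 to 11.27 in brachial exercised samples. Internal mammary values ran from 10.95 through 11.28 to 11.48 in sedentary and from 11.13 through 11.23 to 11.35 in exercised pigs. The groups of the 2 arteries overlapped in range, yet within pigs the brachial value was the lower one in 14 of 14. The change was -0.28 ± 0.05 (SE), 1.21-fold, with adjusted p = 0.000103 by limma.

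A second VEGFA probe set (Ssc.15740.2.S1_a) gave the same direction, -0.46 ± 0.10 (adjusted p = 0.000229), and was lower in 12 of 14 pigs. The probe set Ssc.15740.1.S2 gave -0.12 ± 0.12 (adjusted p = 0.418). The fourth (Ssc.15740.2.A1), whose values stayed between 4.08 and 4.94, went the other way with 0.24 ± 0.07 (adjusted p = 0.00334), and did not pass after the arrays were quantile-normalized again (0.14, adjusted p = 0.0858) or among the early pigs alone (0.18, adjusted p = 0.161). Over the 29 arrays with group means removed, Ssc.15740.2.S1_a and Ssc.15740.1.S2 varied together (Pearson r = 0.816), while the one with the highest mean followed them weakly (r = 0.225 and 0.207). These correlations share arrays and so any array-wide shift.

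VEGFB, a ligand of FLT1 tied to fatty acid handling in endothelium, had medians of 10.07 in brachial sedentary and 10.16 in brachial exercised samples. Its internal mammary medians were 9.76 and 9.97, with all samples of the study between 9.51 and 10.43. The artery change was 0.16 ± 0.07 (adjusted p = 0.0672) and did not pass. It passed in 8 of 29 alternatives. These were arrays centred (0.21, adjusted p = 0.0141) or quantile-normalized again (0.20, adjusted p = 0.0299), array weights and the endothelial mean as a covariate. The others left out pig 11_1, 14_3, 15_1 or 15_2.

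FGF2, a mitogen of endothelial and smooth muscle cells without a classical secretion signal, was lower in the brachial artery by its brighter probe set (-0.36 ± 0.12, adjusted p = 0.0101). In brachial samples it ran from 6.70 through 7.43 to 8.06 in sedentary pigs and from 6.69 through 7.30 to 7.58 in exercised pigs. Its internal mammary values ran from 6.91 through 7.47 to 8.06 in sedentary and from 7.37 through 7.91 to 8.37 in exercised pigs. Only the highest exercised brachial samples reached the lowest exercised internal mammary one, while the sedentary groups of the 2 arteries covered nearly the same range. Within pigs the mean difference was -0.03 ± 0.58 (SD, 7 pigs) in sedentary pigs, 5 of 7 lower, and -0.71 ± 0.37 (SD, 7 pigs) in exercised pigs, 7 of 7 lower. The test of that difference, the interaction of training and artery, gave -0.66 ± 0.23 with an unadjusted p of 0.0079 and an adjusted p of 0.963 by limma, so it did not pass. The artery call for FGF2 was lost among the early pigs alone (-0.44, adjusted p = 0.0627) and the late pigs alone (-0.33, adjusted p = 0.0748), and with the 28S/18S ratio (-0.29, adjusted p = 0.0789) or the macrophage mean (-0.33, adjusted p = 0.0582) as a covariate. The other FGF2 probe set gave 0.08 ± 0.08 (adjusted p = 0.411), and passed with the smooth muscle mean as a covariate (0.18, adjusted p = 0.00718).

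**Figure D2:**
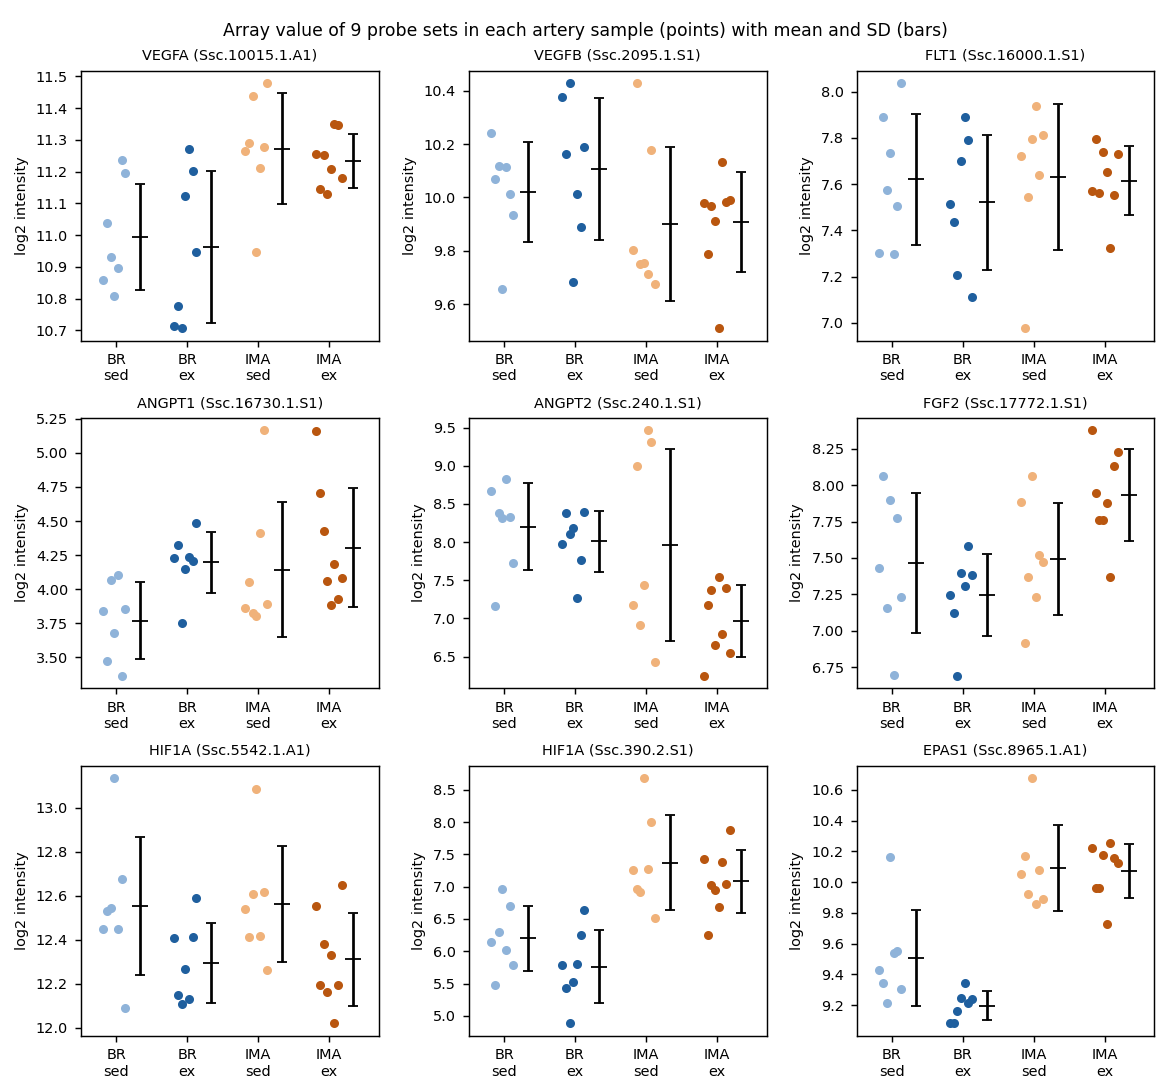
Log2 intensity of 9 probe sets in each sample (points) of the brachial (BR) and internal mammary (IMA) artery of sedentary (sed) and exercised (ex) pigs, with group mean and SD (bars). EPAS1 and HIF1A Ssc.390.2.S1 sit lower in both brachial groups, and the sedentary internal mammary values of ANGPT2 range from 6.43 to 9.46.

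FLT1, the receptor, showed disagreement between its probe sets. The one with the highest mean (Ssc.16000.1.S1) had close medians in all 4 groups, 7.57 in brachial sedentary, 7.51 in brachial exercised, 7.72 in internal mammary sedentary and 7.61 in internal mammary exercised samples. Its artery change was -0.05 ± 0.09 (95% interval -0.23 to 0.13, adjusted p = 0.654). A second probe set (Ssc.3872.1.S1) tracked the first from sample to sample (r = 0.832 over 29 arrays) but was lower in brachial samples by 0.40 on the log2 scale (-0.40 ± 0.08, adjusted p = 0.000216), in 12 of 14 pigs. The dimmest (Ssc.16000.1.A1, between 4.68 and 5.78) was higher in 13 of 14 pigs (0.37 ± 0.07, adjusted p = 3.09e-05). No single direction can therefore be given for FLT1 RNA between the arteries from these probe sets. Which isoform or strand each probe set reads could not be checked, for FLT1 or for VEGFA and HIF1A.

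ANGPT1 read low on both probe sets. The brighter one ran from 3.37 to 4.49 in brachial samples and from 3.81 to 5.16 in internal mammary samples, with an artery change of -0.25 ± 0.12 (adjusted p = 0.0968), and the other gave 0.04 ± 0.06 (adjusted p = 0.583). The brighter one passed after quantile normalization (-0.34, adjusted p = 0.0227).

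ANGPT2 varied most within groups of the 18 probe sets, with a within-group SD of 0.747. In brachial samples it ran from 7.17 through a median of 8.32 to 8.82 in sedentary pigs and from 7.26 through 8.11 to 8.39 in exercised pigs. In the internal mammary artery it ran from 6.43 through 7.43 to 9.46 in sedentary pigs, and from 6.25 through 6.98 to 7.55 in exercised pigs. The sedentary internal mammary samples of pigs 13_2, 15_1 and 11_1 read 9.46, 9.32 and 8.99, and the other 4 of that group lay at or below 7.43. The brachial value was higher in 11 of 14 pigs, in 4 of 7 sedentary pigs (mean difference 0.24 ± 1.36, SD) and 7 of 7 exercised pigs (1.00 ± 0.60, SD). The artery change was 0.63 ± 0.23 (adjusted p = 0.0235). This call did not hold without pig 10_2 (0.53, adjusted p = 0.0671), 11_4 (0.53, adjusted p = 0.0641), 12_3 (0.58, adjusted p = 0.057) or 15_4 (0.57, adjusted p = 0.0547), among the late pigs alone (0.36, adjusted p = 0.452), with pig as a fixed block (0.62, adjusted p = 0.0514), or after adjustment for smooth muscle markers (0.41, adjusted p = 0.0785) or the 28S/18S ratio (0.50, adjusted p = 0.135).

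EPAS1 gave the smallest p of the 18. In brachial samples it ran from 9.21 through a median of 9.43 to 10.16 in sedentary pigs and from 9.08 through 9.21 to 9.35 in exercised pigs. Internal mammary EPAS1 ran from 9.86 through 10.05 to 10.68 in sedentary pigs and from 9.73 through 10.14 to 10.25 in exercised pigs. Except for the brachial sample of pig 12_3 at 10.16, every brachial value, the next highest being 9.55, lay below every internal mammary value. The change was -0.73 ± 0.07 (adjusted p = 8.15e-10), and the artery order held in each training group, with mean within-pig differences of -0.59 ± 0.16 in sedentary and -0.86 ± 0.20 in exercised pigs (SD, 7 pigs each). Adjusted for the macrophage marker mean the change was -0.63 ± 0.08 (adjusted p = 2.76e-07), and with the endothelial mean it was -0.72 ± 0.06.

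The 4 HIF1A probe sets split. The brightest (Ssc.5542.1.A1) did not separate the arteries, with -0.01 ± 0.07 (95% interval -0.16 to 0.13, adjusted p = 0.877) and within-pig differences between -0.27 and 0.22. The probe set Ssc.390.2.S1 ran from 5.48 through 6.14 to 6.96 in brachial sedentary samples and from 4.88 through 5.79 to 6.64 in brachial exercised samples. The internal mammary values ran from 6.52 through 7.25 to 8.68 and from 6.26 through 7.03 to 7.88. It was lower in the brachial artery of 14 of 14 pigs, with within-pig differences from -2.14 to -0.62 and a change of -1.25 ± 0.17 (adjusted p = 4.01e-07). Another (Ssc.390.1.A1, between 3.93 and 4.59) was lower in 13 of 14 pigs (-0.27 ± 0.05, adjusted p = 9.99e-06), and Ssc.390.2.A1 gave -0.14 ± 0.07 (adjusted p = 0.0616), which passed after quantile normalization (-0.25, adjusted p = 0.00194) and without pig 11_3. The first 2 varied together across the 29 arrays (r = 0.746) although only one of them differed between the arteries.

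**Figure D3:**
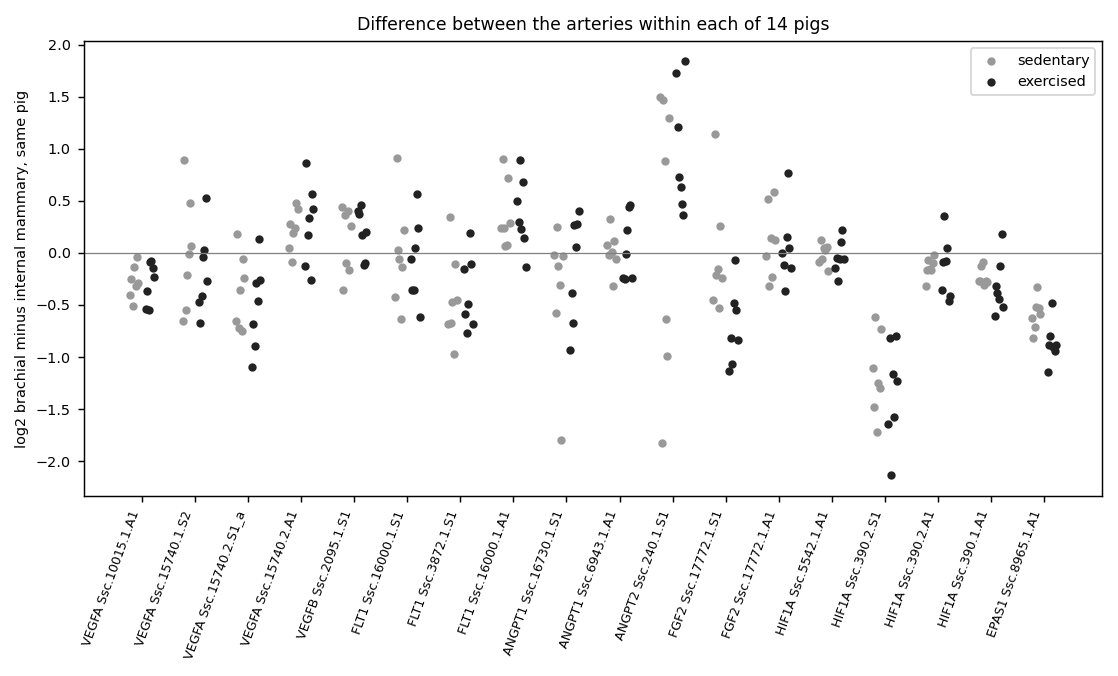
Brachial minus internal mammary log2 value within each of the 14 pigs with both arteries (points; sedentary grey, exercised black) for the 18 probe sets. All 14 points lie below 0 for VEGFA Ssc.10015.1.A1, HIF1A Ssc.390.2.S1 and EPAS1, while those of ANGPT2 spread from -1.83 to 1.84.

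A difference of one sign in 14 of 14 pigs was seen for 3 of the 18 probe sets (VEGFA Ssc.10015.1.A1, HIF1A Ssc.390.2.S1 and EPAS1), or 16.7%, against 15.7% of all probe sets. The artery calls of these 3, of VEGFA Ssc.15740.2.S1_a, of HIF1A Ssc.390.1.A1 and of the 2 FLT1 probe sets that passed held in every alternative in which they were tested. Of these, FLT1 Ssc.16000.1.A1 and HIF1A Ssc.390.1.A1 were not in the fit without the dimmest probe sets. None of the alternatives adjusted for the fibroblast marker mean.

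Training moved none of these genes past the threshold. In the brachial artery 0 of 18 probe sets passed by limma, against 1.63% of all probe sets (1.02% higher and 0.613% lower), and 2 had an unadjusted p under 0.05. In the internal mammary artery 0 passed, against 0.596% of all (0.458% higher and 0.138% lower), and 3 had an unadjusted p under 0.05. Averaged over both arteries 0 passed, against 4.68% of all (2.88% higher and 1.8% lower), with 1 unadjusted. The interaction called 0 of 18 and 0 of all 23999 probe sets (0%), with 2 of the 18 and 1035 of all under 0.05 unadjusted. No probe set of the 18 had sedentary and exercised groups that did not overlap in either artery, against 0.604% of all probe sets for the brachial and 0.288% for the internal mammary comparison.

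For the VEGF ligands and FLT1 the training values of the brightest probe sets were small beside their intervals. VEGFA by its brightest probe set gave a brachial change of -0.04 ± 0.09 (95% interval -0.22 to 0.15, adjusted p = 0.900) and an internal mammary change of -0.04 ± 0.09 (-0.22 to 0.14, adjusted p = 0.907). By Ssc.15740.2.S1_a, VEGFA gave 0.13 ± 0.16 and 0.30 ± 0.16 (adjusted p = 0.774 and 0.446), the latter with a 95% interval of -0.02 to 0.62. By Ssc.15740.1.S2 it gave 0.05 ± 0.20 and 0.29 ± 0.19 (adjusted p = 0.941 and 0.596). By each of these probe sets, 8 of 8 exercised internal mammary samples read above the sedentary mean. The dimmest VEGFA probe set gave 0.05 ± 0.11 and 0.02 ± 0.11. VEGFB gave 0.09 ± 0.12 (-0.16 to 0.33) and 0.01 ± 0.12 (-0.23 to 0.25), with adjusted p = 0.801 and 0.994. FLT1 by its brightest probe set gave -0.09 ± 0.15 (-0.40 to 0.21) and -0.02 ± 0.14 (-0.31 to 0.28), with adjusted p = 0.824 and 0.984. For these 3 genes the intervals leave out a doubling or a halving of array value in either artery, though not smaller changes.

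ANGPT2 gave the largest training value of the 18, in the internal mammary artery. The change there was -0.99 ± 0.38 (95% interval -1.76 to -0.22, adjusted p = 0.239), with 8 of 8 exercised samples below the sedentary mean, which the 3 high sedentary samples named above raised. In the brachial artery it was -0.20 ± 0.39 (adjusted p = 0.859), and the interaction was 0.79 ± 0.47 (unadjusted p = 0.103, adjusted p = 1.00). The 28S/18S ratio was higher in exercised internal mammary samples, 1.33 against 1.19 (adjusted p = 0.0443 by an exact permutation test), and with it as a covariate the ANGPT2 change there was -1.13 (adjusted p = 0.173). The lymphocyte marker mean was also higher in exercised internal mammary samples, 0.243 against -0.156 (adjusted p = 0.0443 by an exact permutation test), with 1 of its 4 measured genes higher and 0 lower. Its part in the training values of that artery was not tested. ANGPT1, by its brighter probe set, gave 0.42 ± 0.21 in the brachial artery (adjusted p = 0.327), with 6 of 7 exercised samples above the sedentary mean, and 0.16 ± 0.20 in the internal mammary artery (adjusted p = 0.815). FGF2 gave a brachial change of -0.22 ± 0.19 and an internal mammary change of 0.44 ± 0.19 (adjusted p = 0.633 and 0.313).

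EPAS1 gave -0.31 ± 0.11 in the brachial artery (95% interval -0.54 to -0.07, unadjusted p = 0.0114, adjusted p = 0.162), with 7 of 7 exercised samples below the sedentary mean. In the internal mammary artery it gave -0.02 ± 0.11 (-0.24 to 0.21, adjusted p = 0.973). The interaction was -0.29 ± 0.14 (unadjusted p = 0.0447, adjusted p = 1.00). Without pig 12_3 the brachial value was -0.20 (adjusted p = 0.234), and adjusted for the macrophage marker mean it was -0.13 ± 0.13 (adjusted p = 0.799). That mean was itself lower in exercised brachial samples, -0.468 against 0.124 in sedentary ones (adjusted p = 0.0443 by an exact permutation test), with 3 of 8 macrophage genes lower and 0 higher.

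HIF1A by its brightest probe set gave a brachial change of -0.26 ± 0.12 (adjusted p = 0.267) and an internal mammary change of -0.25 ± 0.11 (adjusted p = 0.353). In brachial samples it ran from 12.09 through 12.53 to 13.14 in sedentary pigs and from 12.11 through 12.27 to 12.59 in exercised pigs. Its internal mammary range was from 12.26 through 12.54 to 13.08 and from 12.02 through 12.26 to 12.65. Of the exercised samples, 6 of 7 brachial and 7 of 8 internal mammary ones read below the mean of the sedentary group, and the groups overlapped widely in both. Averaged over the arteries the change was -0.26 ± 0.09 (adjusted p = 0.104). It passed without pig 15_4 (-0.31, adjusted p = 0.049) or 17_1 (-0.32, adjusted p = 0.0375), and gave -0.17 (adjusted p = 0.243) without pig 12_3. Among the late pigs alone it was -0.09 (adjusted p = 0.860), where the brachial change was -0.05 (adjusted p = 0.937). With the macrophage mean as a covariate the brachial change was -0.15 (adjusted p = 0.790). The probe set Ssc.390.2.S1 gave -0.44 ± 0.27 and -0.29 ± 0.27 in the same arteries (adjusted p = 0.473 and 0.732).

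The order of the pigs was shared between arteries for some probe sets of the hypoxia factors and not for others. With training group means removed, the brachial and internal mammary values of HIF1A correlated across the 14 pigs at r = 0.854 for Ssc.5542.1.A1 and 0.734 for Ssc.390.2.S1, but at 0.501 for Ssc.390.2.A1 and -0.157 for Ssc.390.1.A1. Those of EPAS1 correlated at 0.709. The median over all probe sets was 0.271 and the 95th percentile 0.779. The sedentary pig 12_3 had the highest values of its group in both arteries for EPAS1 and for HIF1A Ssc.5542.1.A1 and Ssc.390.2.S1, and its macrophage marker mean was 0.855 in the brachial sample, the highest of the 29 arrays. Without that pig EPAS1 gave r = 0.109, while the 4 HIF1A probe sets gave 0.723, 0.657, 0.361 and -0.198 in the same order. The correlation of HIF1A with EPAS1 rested on the same pig, at 0.502 over the 15 internal mammary and 0.684 over the 14 brachial arrays with it and -0.003 and 0.185 without it. By their brightest probe sets VEGFA gave 0.501 between arteries and FLT1 -0.431. Their other probe sets gave 0.234, 0.209 and -0.232 for VEGFA, and -0.111 and -0.583 for FLT1. The value of ANGPT2 was 0.045.

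Within each artery, the genes, each read by its probe set with the highest mean, divided in how they followed the cell type markers. FLT1 followed the endothelial marker mean (r = 0.55 in the internal mammary and 0.90 in the brachial artery) and ran against the smooth muscle mean (-0.73 and -0.87). Its other probe sets gave weaker endothelial values, 0.42 and 0.48 for Ssc.3872.1.S1 and 0.09 and 0.31 for Ssc.16000.1.A1. FGF2 also ran against smooth muscle markers (-0.52 and -0.69). VEGFB varied with smooth muscle markers in both arteries (0.67 and 0.70). ANGPT2, in textbooks an endothelial product, followed smooth muscle markers (0.38 and 0.74) and ran against endothelial markers in the brachial artery (-0.82), though not in the internal mammary artery (0.25). EPAS1 stayed between -0.30 and 0.14 for both means, and had its highest value with macrophage markers in the brachial artery (0.57), where it also ran against fibroblast markers (-0.57). Without pig 12_3 these 2 values were -0.15 and -0.34, and that with smooth muscle markers in the internal mammary artery was 0.52. All points in a correlation share an artery and any array-wide shift, and the part of cell mixture in them was not tested.

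**Figure D4:**
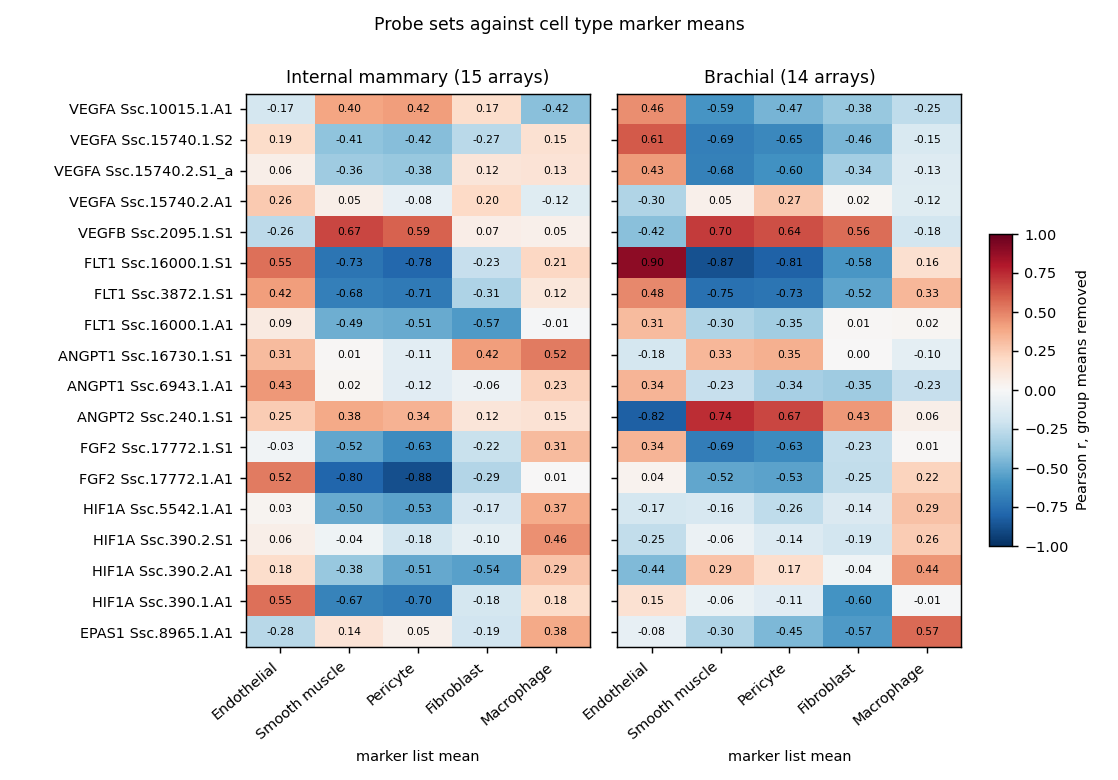
Pearson correlation, with group means removed, of each of the 18 probe sets (rows) with the mean of 5 cell type marker lists (columns), over 15 internal mammary arrays (left) and 14 brachial arrays (right). FLT1 Ssc.16000.1.S1 is red with endothelial and blue with smooth muscle markers in both arteries, and ANGPT2 is the reverse in the brachial artery, with -0.82 and 0.74.

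Among the 6764 other genes, the one most like FLT1 was PECAM1, the endothelial adhesion molecule (r = 0.868 in the internal mammary and 0.891 in the brachial artery), followed by LIPA and the endothelial surface protein ECSCR. ANGPT2 was most like the protease PRSS23 (0.821 and 0.890), the nuclear receptor NR2F2 (0.907 and 0.778), known for its role in vein identity, and ISLR. HIF1A was most like NOP58, a nucleolar protein of ribosomal RNA modification (0.916 and 0.844), TOMM20 and GAR1. EPAS1 was most like the chaperone HSP90AA1 (0.847 and 0.825), UGP2 and the mitochondrial superoxide dismutase SOD2, but this rested on pig 12_3. Without that pig EPAS1 gave 0.574 and 0.165 with HSP90AA1, -0.244 and 0.578 with UGP2, and -0.053 and 0.249 with SOD2. For HIF1A the values without it were 0.846 and 0.654 with NOP58, 0.744 and 0.557 with TOMM20, and 0.693 and 0.484 with GAR1. VEGFB was most like the chemokine CXCL12 (0.794 and 0.841), and VEGFA and FGF2 had their highest values with DENND6A and DDB1. The values of VEGFA with DENND6A were 0.760 and 0.817, and 0.560 and 0.800 without pig 12_3. ANGPT1, near the low end of its scale, reached no more than a mean of 0.624 (with OAF).

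The other genes of these pathways were followed through 7 lists, of whose genes 59 had a probe set. Between the arteries 17 were higher in the brachial artery, 11 were lower and 31 did not pass, with a median change of 0.06. The 28.8% higher and 18.6% lower stand beside 31.8% and 22.5% of all probe sets. LOX, a collagen and elastin cross-linking enzyme induced by hypoxia, was lower by 1.97 on the log2 scale (-1.97 ± 0.13), and its brachial values, at most 10.74, lay below all internal mammary values, at least 11.01. ADM, the vasodilator peptide adrenomedullin and another HIF target, was also lower (-0.75 ± 0.18), as was INSIG2 (-0.44 ± 0.05). Higher were the anti-angiogenic factor SERPINF1 (0.58 ± 0.13), the co-receptor NRP2 (0.57 ± 0.04, 14 of 14 pigs), the shear-responsive factor KLF2 (0.51 ± 0.09) and the glycolytic genes LDHA (0.47 ± 0.07) and PFKFB4 (0.39 ± 0.11). LDHA and PFKFB4 belong to the list of HIF targets, as do LOX, ADM and INSIG2, so the named HIF targets went both ways. Of 25 measured HIF targets 6 were higher, 8 lower and 11 did not pass (24% and 32%), with a median of -0.08. The receptor for the angiopoietins, TEK, was lower (-0.31 ± 0.08, adjusted p = 0.00143), and its partner TIE1 was higher (0.28 ± 0.08, adjusted p = 0.00351). These 2 and ARNT, the partner of both HIF subunits (0.33 ± 0.07, higher), fell outside the naming rule and were chosen after their values were seen. In the list of the VEGF family and receptors, 2 genes were measured, NRP2 and KDR, and both were higher. KDR, read by a dim probe set, is also named outside the rule, and its alternatives are not given. The call of ADM did not hold among the early pigs alone (-0.46, adjusted p = 0.0889) or that of TIE1 (0.23, adjusted p = 0.146). Among the late pigs alone SERPINF1 (0.48, adjusted p = 0.078) and PFKFB4 (0.28, adjusted p = 0.167) did not pass, nor PFKFB4 after adjustment for the 28S/18S ratio (0.28, adjusted p = 0.0535).

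With training averaged over both arteries, 4 of the 59 rose, 2 fell and 53 did not pass. The 6 are 10.2% of the 59, against 4.68% of all probe sets. The erythropoietin receptor EPOR rose (0.76 ± 0.16, adjusted p = 0.00762), as did the glycolytic enzyme ALDOC (0.54 ± 0.10, adjusted p = 0.00223), the anti-angiogenic protease ADAMTS1 (0.42 ± 0.12, adjusted p = 0.0349) and the carbonic anhydrase CA9 (0.39 ± 0.09, adjusted p = 0.016). ADM fell by 0.94 on the log2 scale (-0.94 ± 0.23, adjusted p = 0.0181), and PGK1, a glycolytic kinase, fell by 0.20 (-0.20 ± 0.05, adjusted p = 0.0215). In single arteries ALDOC rose in the brachial artery and EPOR in the internal mammary artery, and the other 58 did not pass in each. That is 1.69% of the 59 in each, against 1.63% and 0.596% of all. ADAMTS1 aside, these genes belong to the list of HIF targets, of which 3 rose, 2 fell and 20 did not pass (20% called). Its median was 0.01, the same as that over all probe sets, and no gene of the lists passed in the interaction.

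Several of these training calls were lost under alternatives. With pig as a fixed block the averaged calls of EPOR (0.70, adjusted p = 0.0684), ADAMTS1 (0.37, adjusted p = 0.159) and PGK1 (-0.19, adjusted p = 0.0605) did not pass. With the macrophage mean as a covariate those of CA9 (0.37, adjusted p = 0.0879), ADM (-0.71, adjusted p = 0.173) and PGK1 (-0.18, adjusted p = 0.122) did not, nor did the brachial call of ALDOC (0.70, adjusted p = 0.113). Among the late pigs alone none of the 6 averaged calls passed, and among the early pigs alone that of ALDOC did. With a pig left out, ADAMTS1 was lost in 7 of 15 fits (without 10_1, 10_2, 10_5, 12_2, 12_5, 13_2 or 17_1), ADM in 2 (without 10_5 or 11_1) and PGK1 in 1 (without 15_2). The internal mammary call of EPOR was lost in 17 of 29 alternatives, 11 of them with a pig left out, and also with no block (0.87, adjusted p = 0.0615) and with pig as a fixed block (0.87, adjusted p = 0.105).

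**Figure D5:**
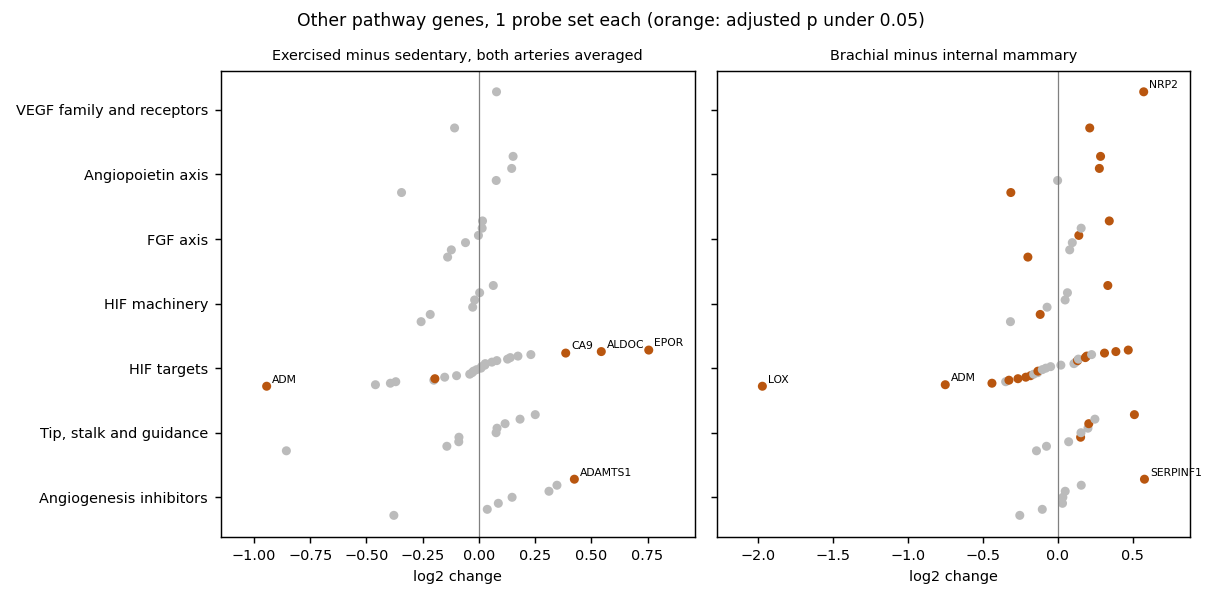
Log2 change of the 59 other pathway genes (points, by list), exercised minus sedentary averaged over both arteries on the left and brachial minus internal mammary on the right, with those past an adjusted p of 0.05 in orange. LOX at -1.97 and ADM at -0.75 lie farthest left in the artery comparison, and ADM at -0.94 and EPOR at 0.76 mark the ends of the training comparison.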

How the data were processed

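Per the labels' protocols, arteries were scraped into TRI Reagent and RNA was amplified from an oligo(dT) primer. The authors deposited one log2 intensity per probe set and array. The submitters' processing notes name affy, with no version, and background correction and normalization are not given in the sources used here. Of 24123 probe sets, 124 controls were left out. Precision is set by the number of arrays, since there is no read depth.

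All 29 arrays entered one limma 3.58.1 fit (R 4.3.3) with 4 group means, pig as a random block (consensus correlation 0.255), moderated tests and Benjamini-Hochberg adjustment over 23999 probe sets, threshold 0.05. The pairing came from the pig labels: own-pig profiles correlated at a median of 0.190 against -0.023 between pigs. The own pair was the highest match for 7 of 14 pigs. Marker means and the 28S/18S ratio were compared by two-sided exact permutation or sign flips, adjusted over 30 tests. The fit was tested on simulated data with changes placed in the brachial exercised group only, so the artery comparison was not tested this way. Figures were drawn with matplotlib 3.10.9.

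Where a gene had several probe sets, the one with the highest mean spoke for it. Named pathway genes were those that passed, at most 8 per comparison by size of change. Likeness was the mean of both arteries' correlations. By collection order, 8 pigs are termed early and 7 late. The members and the lists were chosen with earlier results of these data known. Alternatives covered block, filter, scaling, prior, weights, collection period, 28S/18S ratio, each pig left out, and the smooth muscle, endothelial and macrophage means. The fibroblast mean, which differed between the arteries, was not used as a covariate. Correlations without pig 12_3, and the alternatives for TEK, TIE1 and ARNT, were added after seeing the data. The lists of adipocyte, lymphocyte, erythroid and skeletal muscle markers, with pericytes, gave artery differences of 0.223, -0.070, -0.471, 0.064 and 0.167 (adjusted p = 0.0607, 0.584, 0.267, 0.576 and 0.679). No genome build is named, so no coordinates are given.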

Additional observations from a re-analysis of the deposited data

Results flagged for a closer look

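In 72 checks of a group's highest or lowest sample against the rest, 6 stood apart, and chance gives about 1 in 20. Pig 12_3 held 2 of them, with EPAS1 at 10.16 in its brachial and 10.68 in its internal mammary sample, each the highest of the sedentary group. Pig 11_1 was lowest in the sedentary internal mammary group for both FLT1 probe sets that varied together, at 6.98 for Ssc.16000.1.S1 and 6.68 for Ssc.3872.1.S1. The dimmer FGF2 probe set read 5.34 in the brachial sample of sedentary pig 11_4, the lowest of its group. The HIF1A probe set Ssc.390.2.A1 read 5.05 in the internal mammary sample of exercised pig 15_4, the highest of its group.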

How the results depend on the processing

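For the 18 probe sets, the count passing between the arteries was 10, from 7 to 12 over the alternatives and from 9 to 11 with a pig left out. The training counts stayed at 0, except that the average over both arteries gave 0 to 1 with a pig left out (HIF1A). Of 515 single values between the arteries, 489 kept their side of the threshold, 14 lost it and 12 gained it, with 0 turned.

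Counts over all probe sets moved more. With pig as a fixed replicate block they were 122 (brachial training, 392 in the chosen fit), 13 (internal mammary training, 143) and 364 (average, 1123), and with no replicate block the average gave 1996. Neither block changed a training call of the 18; the artery count was 9 with the fixed block and 10 without a block, ANGPT2 being the one lost. Brachial training gave 11 among the early and 0 among the late pigs, 783 with the smooth muscle and 6 with the macrophage mean as a covariate. Internal mammary training gave 5 early, 0 late, 337 with array weights, 273 with the 28S/18S ratio, and 242, 418 and 92 with the smooth muscle, endothelial and macrophage means. The average gave 252 early, 28 late and 285 with the macrophage mean. The interaction gave 3 and 1 with the smooth muscle and endothelial means, and the artery comparison 8596 among the late pigs (13026). With a pig left out the counts ran from 149 to 589 (brachial), 35 to 291 (internal mammary), 705 to 1223 (average) and 0 to 1 (interaction). The early and late fits hold fewer pigs; otherwise the cause was not tested. Signal over background was not measured here, which limits the dim probe sets.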
